A study of Mus musculus with 6 samples.

Results

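Tissue macrophages are the long-lived phagocytes of solid organs, and this account follows 10 genes by which they are commonly recognised: Csf1r, Spic, C1qa, C1qb, C1qc, Cd163, Mrc1, Timd4, Adgre1 and Vcam1. The members are the probe sets of the array whose annotated gene symbol is one of these names. They number 17 probe sets for 10 genes, of 45037 probe sets other than controls and 18193 genes with a probe set of their own. The cells measured were not macrophages but megakaryocyte progenitors (MkP), the precursors of platelet-forming megakaryocytes. One group of 3 arrays came from bone marrow of adult wild-type C57BL/6 mice aged 12 to 18 weeks, and the other group of 3 arrays from wild-type C57BL/6 fetal livers at E13.5. In both tissues the cells had been flow sorted as lin-, Sca-1-, c-kit+, CD150+ and CD41+, and the labels name no transgene or drug. They do not say how many animals or embryos went into a sample. The study asks how the fetal and the adult progenitor differ in gene expression.

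In marrow and fetal liver, macrophages sit among developing blood cells and take up the nuclei that maturing red cells expel, dying cells and free haemoglobin. They depend on the receptor encoded by Csf1r, and the iron-recycling subset on the transcription factor encoded by Spic. Their surface carries scavenger receptors and the adhesion molecule VCAM-1, which holds erythroblasts in place, and they are a main source of the complement component C1q, which tags dying cells for uptake.

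Of the 10 genes, 3 were lower in fetal liver MkP than in marrow MkP and 0 were higher. These were Csf1r, the growth factor receptor, Cd163, the receptor for haemoglobin bound to haptoglobin, and Vcam1. The mean marrow signal was 8.58 times the fetal liver mean for Csf1r. For Vcam1 it was 11.7 times, but Vcam1 was above background on just 1 fetal liver array, so this ratio includes signals under background. Cd163, not above background in fetal liver, was at least 5.85-fold lower there. The other 7, among them the 3 C1q chains and the F4/80 antigen gene Adgre1, were not past the threshold, and 9 of the 10 genes had a negative change. The call is limma's moderated test with Benjamini-Hochberg adjustment at 0.05, fitted without a filter on dim genes so that all 10 were tested. In that fit 2.73% of all genes were lower in fetal liver at the adjusted threshold. At an unadjusted p under 0.05 the count of members was 5 lower and 0 higher. The share of all genes at that looser threshold was not counted, here or for the lists below. The median change of the 10 genes was -2.06 (log2, fetal liver minus marrow), against -0.03 for all genes. Of the 10, 5 were not above background on any fetal liver array, so the size of this median includes signals under background. The count of 3 was 1, Csf1r alone, when marrow replicate 1 or fetal liver replicate 3 was left out. In bulk RNA, fewer cells of a type and less RNA per cell cannot be told apart, and markers of neutrophils and monocytes were lower in fetal liver too, with values given further on; their part in the result was not tested.

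Neighbouring C1q genes and the called scavenger receptor Cd163 are shown by their promoters, since C1qb and C1qc were brightest on marrow replicate 3 and Cd163 was not. This trait was not particular to C1qb and C1qc. Replicate 3 was the brightest marrow array for 9 of the 10 members, among them Timd4. The sequences are RefSeq's, build GRCm38.p6, from 250 bases before to 50 after the gene start, written 5′ to 3′ on the gene's strand. Capitals mark AGGAAGT or its reverse complement ACTTCCT, letters of the kind bound by ETS factors such as those encoded by Spic and Spi1. The C1qb window is chr4:136886151-136886450 (minus strand), that of C1qc chr4:136892865-136893164 (minus strand) and that of Cd163 chr6:124304401-124304700 (plus strand).
C1qb: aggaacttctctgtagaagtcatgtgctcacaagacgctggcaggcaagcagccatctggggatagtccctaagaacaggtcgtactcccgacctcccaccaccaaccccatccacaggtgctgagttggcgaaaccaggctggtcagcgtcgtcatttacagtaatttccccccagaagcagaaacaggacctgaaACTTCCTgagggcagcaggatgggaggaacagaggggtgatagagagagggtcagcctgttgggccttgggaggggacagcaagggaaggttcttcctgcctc
C1qc: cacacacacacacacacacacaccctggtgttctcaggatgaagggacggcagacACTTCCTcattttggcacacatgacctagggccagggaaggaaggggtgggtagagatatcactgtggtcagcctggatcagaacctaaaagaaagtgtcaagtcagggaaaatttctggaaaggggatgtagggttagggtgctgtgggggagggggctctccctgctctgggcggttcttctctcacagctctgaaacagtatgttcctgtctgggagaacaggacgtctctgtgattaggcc
Cd163: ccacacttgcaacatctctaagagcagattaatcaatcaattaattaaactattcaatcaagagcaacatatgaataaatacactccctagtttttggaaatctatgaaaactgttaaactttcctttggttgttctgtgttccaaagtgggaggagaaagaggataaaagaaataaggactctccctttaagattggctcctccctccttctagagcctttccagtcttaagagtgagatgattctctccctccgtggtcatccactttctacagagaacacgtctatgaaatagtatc

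Promoters of 6 members were matched by symbol (Spic, C1qb, C1qc, Cd163, Mrc1 and Timd4). AGGAAGT, searched on both strands, was found in 4 of these 6 windows and in 9.35% of all 32851 windows of the same length. The match began at base -53 in C1qb, -195 in C1qc, -48 in Spic and -211 in Mrc1, counted from the gene start, and no match lay in the Cd163 or Timd4 window. The shorter GAGGAA, which overlaps the first motif in C1qc, was found in 3 of the 6 windows (C1qb, C1qc and Mrc1) and in 28.3% of all. These motifs were kept from 11 that were searched, after their counts in the members had been seen, so the counts for them were picked to be high. Of the other 9, TGCTGA and GCTGAC (letters of MAF half-sites) were each in 3 of the 6 windows (19.5% and 15.7% of all), GAAATT in 2 (12.0%) and GGAAGTGA in 1 (3.42%). The remaining 5 were in 0 of the 6 windows, namely TTTCGTTTC (0.189% of all), TGACTCA (5.2% of all), TTGCGCAA (0.183% of all), TATAAA (13.6% of all) and CACGTG (7.15% of all). A match describes letters only, and its relation to the signals was not tested. In the RefSeq gene table C1qb, C1qc and C1qa follow each other on chromosome 4 with 0 other genes between them.

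Signals are MAS5 intensities, in arbitrary units on a linear scale. A signal was called above background when it exceeded the highest of 27 bacterial control probe sets on the same array, which lay between 22.2 and 35.1. Most members were dim. By the brightest probe set of each gene, all 10 were above background on some marrow array but 5 on all 3 marrow arrays, and 5 were not above background on any fetal liver array. A filter on mean log2 signal, at a level equal to a signal of 31.4, kept 8 of the 17 probe sets and 5 of the 10 genes (Csf1r, C1qb, Cd163, Mrc1 and Vcam1). Cd163, Mrc1 and Vcam1 passed it only through their marrow signals, their fetal liver means on the log2 scale being under the filter, so the share of called genes among those kept supports nothing here.

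**Figure D1:**
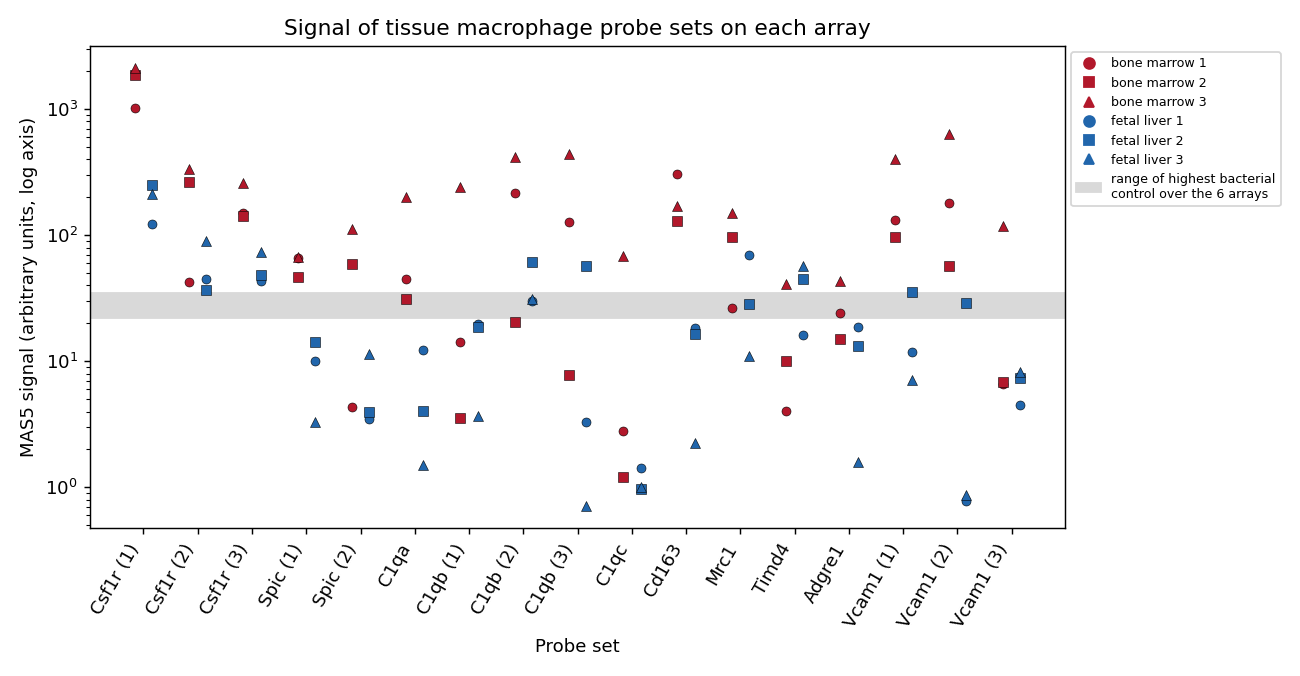
MAS5 signal (log axis) of each of the 17 probe sets on each of the 6 arrays. Red symbols are marrow, blue symbols fetal liver, the shape gives the replicate, numbers in brackets order a gene's probe sets by identifier, and the grey band spans the highest bacterial control signals, 22.2 to 35.1. Csf1r (1) is the brightest, and marrow replicate 3 lies highest for most probe sets, with C1qc above the band on that array alone.

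Csf1r, the receptor for the macrophage growth factors CSF1 and interleukin-34, was the only member above background on all 6 arrays. Its brightest probe set, 1419872_at, gave signals of 1028, 1869 and 2131 in marrow replicates 1, 2 and 3 and of 123, 249 and 213 in fetal liver replicates 1, 2 and 3. Every marrow array lay above every fetal liver array. The means were 1676 ± 577 (SD, n = 3) and 195 ± 65.1 (SD, n = 3), a log2 change of -3.08 ± 0.39 (SE, limma adjusted p = 0.00123). With the filter, 4.76% of 11625 genes were lower in fetal liver and 3.01% were higher. The call held in all 18 alternatives tried, with changes from -3.39 to -2.08.

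The other Csf1r probe sets were dimmer and were not past the threshold in the fit of single probe sets. 1423593_a_at read 152, 143 and 258 in marrow and 43.7, 48.7 and 74.4 in fetal liver, with no overlap (change -1.66 ± 0.52, adjusted p = 0.0965). 1419873_s_at read 42.4, 265 and 338 in marrow and 44.8, 37.1 and 90.8 in fetal liver, so that marrow replicate 1 lay among the fetal liver arrays (change -1.51 ± 0.77, adjusted p = 0.313). The suffix _s_ or _x_ of a probe set marks probes that can bind other transcripts too.

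Spic encodes the ETS factor of iron-recycling macrophages. Its probe set 1418555_x_at read 65.8, 46.7 and 67.9 in marrow and 10.1, 14.3 and 3.30 in fetal liver. The groups did not overlap, and no fetal liver array was above background. Spic was at least 1.90-fold lower in fetal liver, a bound that sets the marrow mean against the background, and it was not past the threshold in the fit without a filter (adjusted p = 0.0673). The second probe set, 1449134_s_at, read 4.32, 59.6 and 112 in marrow and 3.52, 3.97 and 11.4 in fetal liver. Marrow replicate 1 was as dim there as fetal liver, while the first probe set had it as bright as replicate 3, so the probe sets of Spic disagreed on that array.

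C1qa, C1qb and C1qc encode the chains of C1q. C1qa read 45.4, 31.0 and 203 in marrow and 12.4, 4.01 and 1.51 in fetal liver. All marrow arrays were above background and above all fetal liver arrays, none of which was above background. C1qa was at least 2.12-fold lower in fetal liver by the marrow mean, which includes the 203 of replicate 3. Marrow replicates 1 and 2 lay near their highest controls, 32.8 and 27.6. In the fit without a filter C1qa was not past the threshold (adjusted p = 0.0597). The adjusted p was 0.230 with dim signals set to the bacterial controls and 0.135 without marrow replicate 3.

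C1qb had 3 probe sets, and on each of them marrow replicate 3 was the brightest array. The brightest, 1434366_x_at, read 217, 20.4 and 421 in marrow and 30.1, 61.9 and 31.5 in fetal liver. Marrow replicate 2 lay below all fetal liver arrays, so the groups overlapped, and the change was -1.63 ± 0.94 (adjusted p = 0.346). Without marrow replicate 2 it was -2.87 (adjusted p = 0.0225), past the threshold, and over all alternatives the adjusted p ran from 0.0225 to 0.679. 1437726_x_at read 128, 7.74 and 438 in marrow and 3.30, 56.6 and 0.711 in fetal liver. 1417063_at was above background on marrow replicate 3 alone, at 244, against 14.2 and 3.59 on the other marrow arrays and 19.6, 18.9 and 3.67 in fetal liver.

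C1qc was above background on 1 of the 6 arrays. It read 2.80, 1.21 and 67.9 in marrow and 1.43, 0.978 and 1.01 in fetal liver. The change without a filter was -1.56 ± 0.92 (adjusted p = 0.429) and without marrow replicate 3 it was -0.27, so this value rests on that array. For C1qa, C1qb and C1qc alike, marrow replicate 3 was the brightest array. Its signal was 6.54 times that of replicate 2 for C1qa, and C1qb and C1qc were not above background on replicate 2.

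Cd163 encodes the scavenger receptor that clears haemoglobin bound to haptoglobin. It read 304, 129 and 172 in marrow and 18.4, 16.4 and 2.26 in fetal liver. All marrow arrays were above background and no fetal liver array was. Cd163 was at least 5.85-fold lower in fetal liver (adjusted p = 0.00782), and the call held in all 18 alternatives (adjusted p 0.00444 to 0.0334). In the fit without a filter the adjusted p was 0.0135, and it became 0.0559 without marrow replicate 1 and 0.0504 without fetal liver replicate 3. Cd163 was the only member for which marrow replicate 1 was the brightest array.

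Mrc1 encodes the mannose receptor CD206, carried by tissue macrophages and also by liver sinusoidal endothelium. It read 26.6, 96.3 and 150 in marrow and 69.5, 28.4 and 10.9 in fetal liver. Fetal liver replicate 1 lay above marrow replicate 1, and each tissue had 2 arrays above background. The change was -1.28 ± 0.80 (adjusted p = 0.391), with a 95% confidence interval from -3.05 to 0.50 that holds both no change and a large fall.

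Timd4, which encodes the phosphatidylserine receptor TIM-4 for dying cells, was the 1 member with a positive change. It read 4.05, 10.1 and 41.0 in marrow and 16.2, 45.2 and 56.6 in fetal liver. It was above background on 1 marrow array and 2 fetal liver arrays, and the groups overlapped. The change without a filter was 1.26 ± 0.83 (adjusted p = 0.491; 95% confidence interval -0.56 to 3.09).

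Adgre1 encodes F4/80, the antigen by which mouse macrophages are most often stained. It read 24.3, 15.0 and 43.2 in marrow and 18.9, 13.3 and 1.59 in fetal liver. It was above background on marrow replicate 3 alone, and its change without a filter was -1.28 ± 0.77 (adjusted p = 0.443). A difference in Adgre1 was not detectable at these signals.

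Vcam1 encodes the adhesion molecule that binds integrins of blood progenitors and is made by marrow and liver macrophages, stroma and activated endothelium. Its brightest probe set, 1415989_at, read 133, 96.9 and 402 in marrow and 11.8, 35.2 and 7.12 in fetal liver. The groups did not overlap, all marrow arrays and 1 fetal liver array (replicate 2) were above background, and the change was -3.31 ± 0.72 (adjusted p = 0.0209). In the fit with the filter the call was lost without marrow replicate 3 (-2.72, adjusted p = 0.0628). It was also lost there without fetal liver replicate 1 (0.0647) or fetal liver replicate 3 (0.0823). With dim signals set to the bacterial controls, Vcam1 was represented by 1448162_at instead and was not past the threshold (-2.61, adjusted p = 0.0509). Over all alternatives the adjusted p ran from 0.0194 to 0.0823.

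Both brighter Vcam1 probe sets were called when probe sets were tested singly. 1448162_at read 181, 56.9 and 632 in marrow and 0.787, 29.0 and 0.866 in fetal liver (change -4.66 ± 1.05, adjusted p = 0.0294). The dimmest, 1451314_a_at, was above background on marrow replicate 3 alone, at 119, with the other 5 arrays between 4.48 and 8.20. In this fit 4 of the 8 kept member probe sets were lower in fetal liver (Csf1r 1, Cd163 1, Vcam1 2), against 3.28% of all probe sets kept. Without the filter the count was 4 of 17, against 1.75% of all. Of those kept, the count was 2 when marrow replicate 1, marrow replicate 3, fetal liver replicate 1 or fetal liver replicate 3 was left out.

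**Figure D2:**
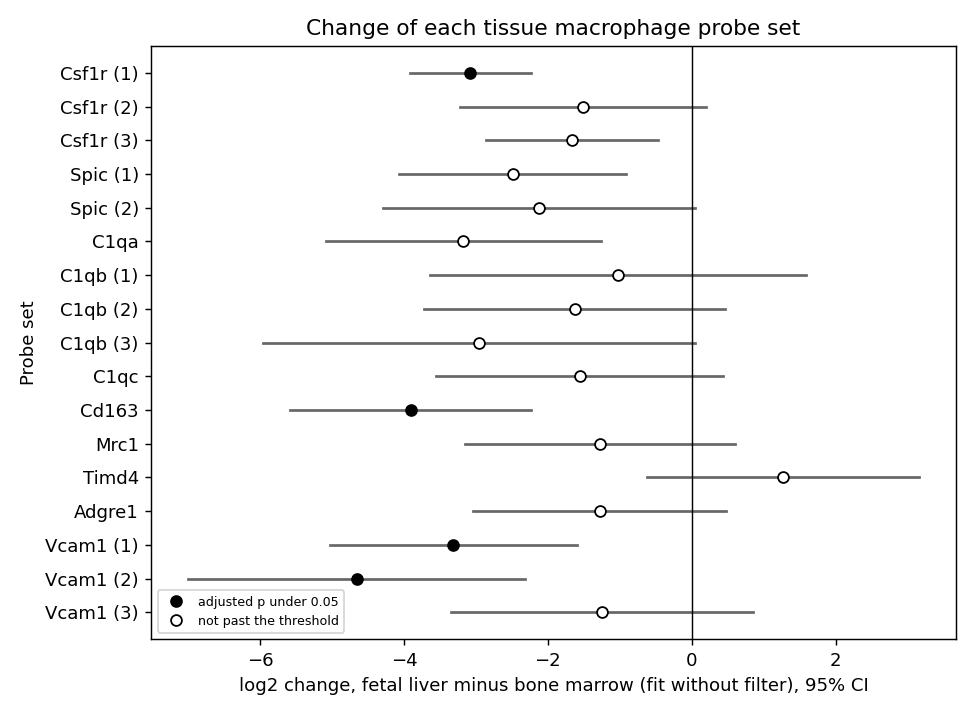
Change of each of the 17 probe sets (log2, fetal liver minus marrow) in the limma fit without a filter, with its 95% confidence interval. Filled points are past an adjusted p of 0.05. The 4 filled points are Csf1r (1), Cd163, Vcam1 (1) and Vcam1 (2), and Timd4 is the only point right of 0.

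By their brightest probe sets, 5 of the 10 genes (Csf1r, Spic, C1qa, Cd163 and Vcam1) had all marrow arrays above all fetal liver arrays, which held for 11.9% of all genes. Within marrow, the members were far from even. Marrow replicate 3 was the brightest marrow array for 9 of the 10 genes, against 33.3% of all genes, and marrow replicate 2 was the dimmest for 7, against 35.2% of all genes. Of these 7, 3 (C1qb, C1qc and Adgre1) were not above background on replicate 2. Csf1r and Cd163 were above every fetal liver array on each marrow array, whereas C1qc and Adgre1 were above background on replicate 3 alone.

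**Figure D3:**
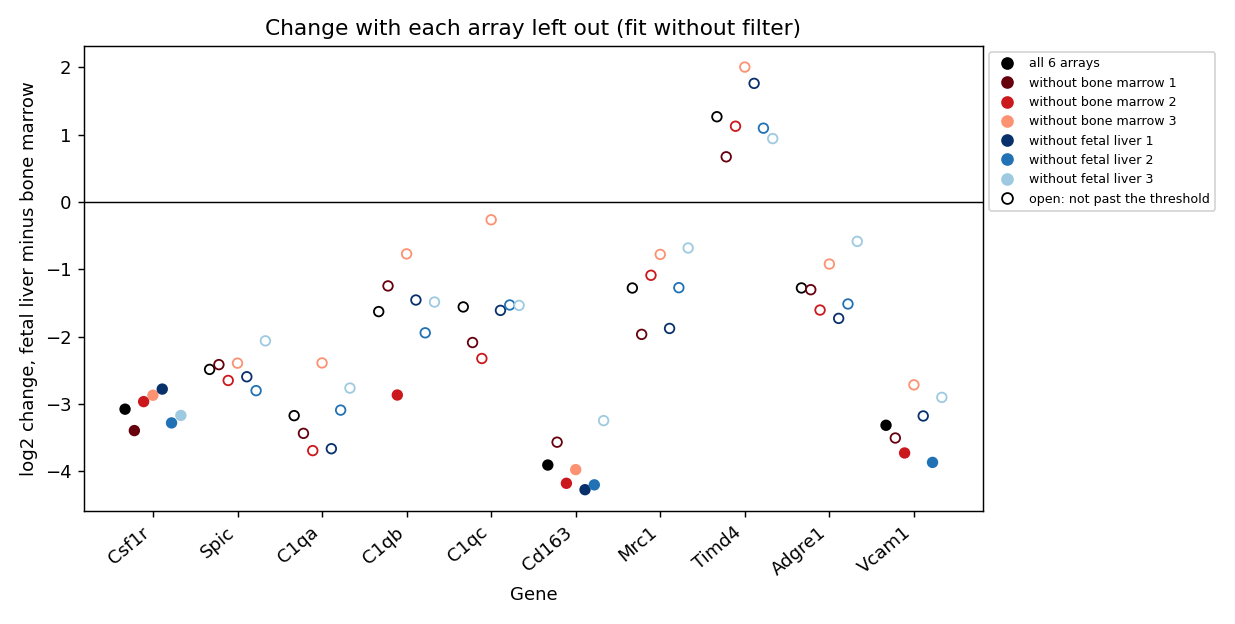
Change of each member gene (log2, fetal liver minus marrow, fit without a filter) with all 6 arrays (black) and with each array left out in turn (red shades marrow, blue shades fetal liver). Filled points are past an adjusted p of 0.05. Csf1r is filled throughout, at -3.39 to -2.78, C1qb is filled only without marrow replicate 2, and C1qc moves from -1.56 to -0.27 without marrow replicate 3.

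Some other genes that mark macrophages differed too, but most were not called. Of 22 further macrophage markers, tested without the filter, 4 fell and 1 rose in fetal liver. In that fit 2.73% of all genes fell. The median of the 22 was -0.83, against -0.03 for all genes. Markers not called included Clec4f, Folr2 and Lyve1, which were too dim for the filter, and Cd68, Fcgr3 and Apoe, which passed it. With the filter 10 were tested, again with 4 lower and 1 higher, while 4.76% of all genes fell and 3.01% rose. All 4 that fell had passed the filter only through their marrow signals, so no median is read from those 10. Mpeg1, which encodes the pore-forming perforin-2, read 302, 282 and 1656 in marrow and 2.79, 21.1 and 1.68 in fetal liver, where no array was above background (adjusted p = 0.00253). The lysosomal protease gene Ctss fell by 5.90 ± 0.75 on the log2 scale (adjusted p = 0.00123) and Cybb, a subunit of the phagocyte oxidase, by 5.56 ± 0.58 (adjusted p = 4.42e-04). Lgals3, galectin-3, was at least 9.35-fold lower (adjusted p = 0.0111). Mpeg1, Ctss, Cybb and Lgals3, like the C1q chains, were brightest on marrow replicate 3. Without marrow replicate 2 the count of fallen markers was 6.

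The 1 marker that rose was Hpgd, the prostaglandin-degrading dehydrogenase, named here, as is Cd5l, after its values were seen. It read 49.4, 7.47 and 41.8 in marrow and 442, 583 and 403 in fetal liver, and the log2 change was 4.03 ± 0.64 (adjusted p = 0.0043). Cd14, Vsig4, Lgmn and Clec4n stayed below the bacterial controls throughout. Cd5l, a secreted protein of macrophages, read 126, 4.34 and 209 in marrow and 32.6, 196 and 111 in fetal liver, with overlap of the groups (adjusted p = 0.789).

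Genes that act with the CSF1 receptor, and the factors that specify macrophages, gave 4 calls, all lower in fetal liver. In that fit, with the filter, 4.76% of all genes were lower. Without the filter 2 of 9 genes of the first list and 3 of 13 of the second were lower, against 2.73% of all genes. Tyrobp, the adaptor DAP12, fell by 3.35 ± 0.46 (adjusted p = 0.002) and was the 1 called gene of 4 tested in its list, with 2796, 1933 and 7987 in marrow and 288, 301 and 461 in fetal liver. With marrow replicate 2 left out, 2 genes of that list were called. Il34 and Trem2 stayed below the bacterial controls on every array. Of 12 macrophage transcription factors 3 fell and 0 rose (at an unadjusted p under 0.05, 5 and 0), with a median of -1.11. Tfec fell by 4.53 ± 0.52 (adjusted p = 7.13e-04). The changes of Irf8 and Cebpa were -3.91 ± 0.53 (adjusted p = 0.00178) and -2.84 ± 0.41 (adjusted p = 0.00273). Spi1, named here after its values were seen, was not called (-0.24 ± 0.57, limma adjusted p = 0.857).

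Around C1q, 3 of 9 complement genes tested with the filter fell and 0 rose, while the median was -0.03. In that fit 4.76% of all genes fell. C5ar1 had passed the filter only through its marrow signals. Without the filter 4 of 16 complement genes fell and 0 rose, with a median of -0.47, while 2.73% of all genes fell. Cd93, a surface receptor of endothelium and early blood cells once described as a C1q receptor, fell by 3.15 ± 0.29 (adjusted p = 2.07e-04). The anaphylatoxin receptor gene C5ar1 fell by 3.48 ± 0.80 (adjusted p = 0.0256) and Cfp, properdin, by 3.04 ± 0.74 (adjusted p = 0.0336). Both were called with all arrays, but with marrow replicate 2 or 3, or fetal liver replicate 1 or 3, left out just 1 gene of the list was called (Cd93), and without fetal liver replicate 2 the count was 2. Under median centring 2 complement genes rose.

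Beside Timd4, 2 of 13 genes for the uptake of dying cells fell and 1 rose in the fit with the filter. There 4.76% of all genes fell and 3.01% rose. Without the filter 1 of 17 fell, which was Elmo1, and 1 rose, while 2.73% of all genes fell. Elmo1, which relays engulfment signals, fell by 1.57 ± 0.27 (adjusted p = 0.00703) and Mfge8, a bridging protein, by 1.07 ± 0.28 (adjusted p = 0.0411). Pros1, protein S, which bridges dying cells to receptors of the MERTK family, rose by 1.04 ± 0.24 (adjusted p = 0.0263). The Mfge8 call was lost with any array left out (adjusted p up to 0.167 over all alternatives), and the Elmo1 call was lost when its probe sets were averaged (-1.05, adjusted p = 0.0646). Pros1 lost its call when any of marrow replicates 2 or 3 or of fetal liver replicates 1 or 3 was left out (up to 0.139).

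Of 12 genes of haem and iron recycling, 1 fell and 1 rose in the fit with the filter, where 4.76% of all genes fell and 3.01% rose. The 1 that fell had passed that filter only through its marrow signals. Without the filter 1 of 13 fell and 1 rose. Hp, haptoglobin, whose complex with haemoglobin is the ligand of CD163, read 211, 871 and 1157 in marrow and 42.5, 45.6 and 4.08 in fetal liver. The change of Hp was -4.60 ± 0.85 (adjusted p = 0.00946). Tfrc, the transferrin receptor, rose by 1.01 ± 0.21 (adjusted p = 0.0165), though not with fetal liver replicate 2 left out (0.0976, the highest over all alternatives). Of 8 genes of the erythroblastic island and of VCAM-1 binding, limma called 0, with 3 at an unadjusted p under 0.05. The integrin gene Itgb7 differed by -1.36 ± 0.54 (adjusted p = 0.165) and Itgb1 by 0.55 ± 0.22 (adjusted p = 0.168; 0.045 under median centring, where 2 genes of the list rose, and 0.045 to 0.756 over all alternatives).

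**Figure D4:**
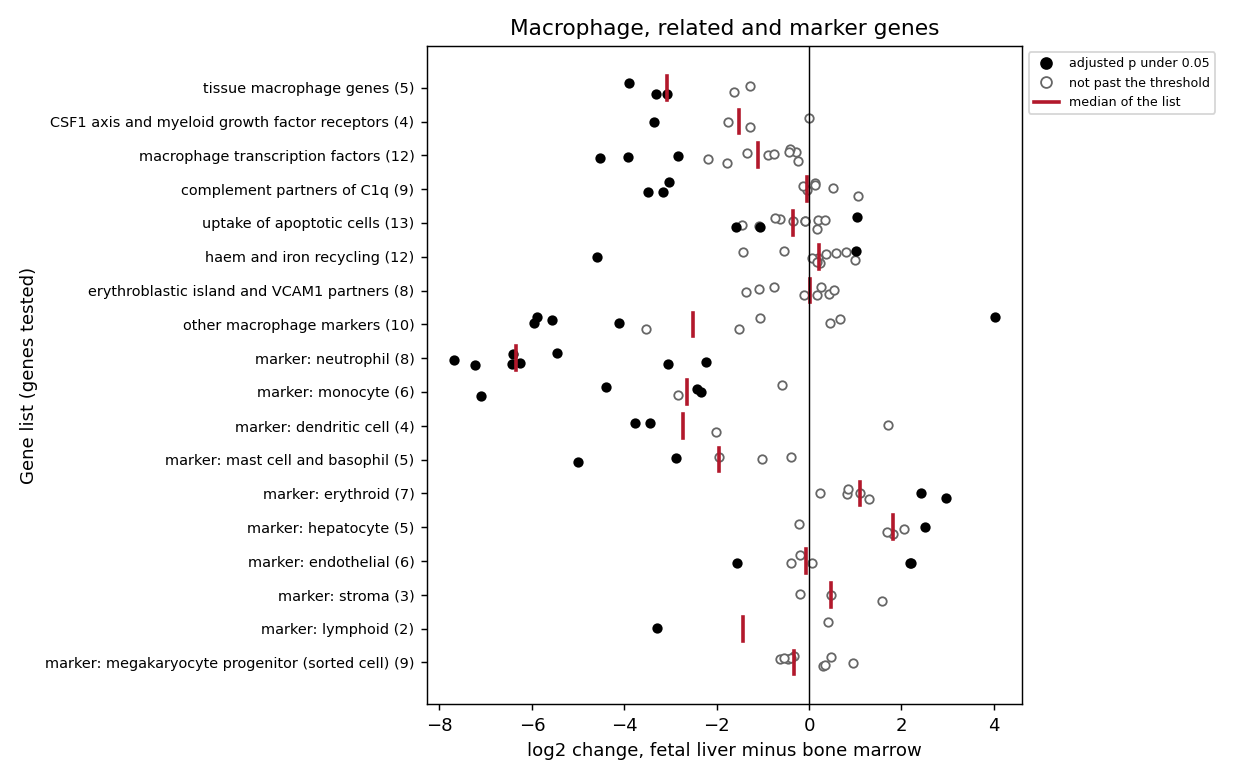
Change of each tested gene (log2, fetal liver minus marrow; filter on dim genes applied) by list, with the number tested in brackets. Filled points are past an adjusted p of 0.05 and the red bar is the list's median. Neutrophil markers lie farthest to the left with a median of -6.33 (-6.25 without the filter). In several lists genes passed the filter only through marrow, among them 5 of the 10 further macrophage markers shown. The median over all 22 of these markers without the filter was -0.83, a value that includes signals under background.

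Markers of other cells moved between the same tissues. In the fit with the filter, 4.76% of all genes fell and 3.01% rose. The summed signal of 9 neutrophil markers was 37382 to 52734 in marrow and 3291 to 5486 in fetal liver. All 8 tested with the filter fell, 4 of them having passed it only through marrow, and without the filter all 9 fell. Mpo, myeloperoxidase, fell by 2.23 ± 0.36 (adjusted p = 0.00463) and the change of S100a9 was -7.23 ± 1.20 (adjusted p = 0.00545). The summed signal of 6 monocyte markers was 8641 to 14638 in marrow and 1569 to 1804 in fetal liver. Of the 6, 4 fell with and without the filter, and 2 of these 4 had passed it only through marrow. Lyz2 fell by 2.42 ± 0.22 (adjusted p = 1.89e-04). Chil3 was at least 37.7-fold lower (adjusted p = 1.86e-04). The summed signal of 8 dendritic cell markers was 838 to 3066 in marrow and 515 to 649 in fetal liver. Of 4 tested 2 fell, both having passed the filter only through marrow. Itgax was not above background on any array. Without the filter 1 dendritic cell marker fell and the median was -0.50. Another of the 4, Zbtb46, named after its values were seen, read 60.1, 102 and 143 in marrow and 260, 414 and 302 in fetal liver, with no overlap (1.71 ± 0.47, adjusted p = 0.0518). The count of 2 became 1 or 0 when any single array other than marrow replicate 2 was left out.

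The same lists varied within marrow. Marrow replicate 3 over replicate 2 was 3.66 for the summed dendritic cell markers, 3.47 for the further macrophage markers, 1.69 for monocyte markers and 1.41 for neutrophil markers. It was 0.898 for 9 markers of the sorted MkP, and the median of this ratio over all genes was 1.01. For the summed signals of the 10 members it was 1.60. Single members above background on both arrays had ratios from 1.14 (Csf1r) through 1.33 (Cd163) and 4.15 (Vcam1) to 6.54 (C1qa), by their brightest probe sets. The part of these differences between marrow arrays in the members' values was not tested.

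The sorted cells carried their own markers, with all 9 MkP markers above background on some array of each tissue. Of these, limma called 0 (3 at an unadjusted p under 0.05; 2 rose under median centring). Pf4 differed by -0.32 ± 0.14 (adjusted p = 0.212) and Itgb3 by 0.34 ± 0.16 (adjusted p = 0.235). Erythroid markers had 2 of 7 higher in fetal liver (1 of 7 without fetal liver replicate 2 or 3) and hepatocyte markers 1 of 5, lost with any array left out. Of 3 tested stroma markers 0 were called (1 at an unadjusted p under 0.05), and of 6 endothelial markers 1 fell and 2 rose, Egfl7 by 2.18 ± 0.25 (adjusted p = 6.83e-04). With marrow replicate 1 or 2, or fetal liver replicate 2 or 3, left out 0 endothelial markers fell, and with either of these fetal liver arrays left out 1 rose. Mast cell and basophil markers fell in 2 of 5 cases, 1 of which had passed the filter only through marrow. The count was 3 without fetal liver replicate 1 or 3. It was 4 with a larger offset, the floor, the mean of the probe sets or the replicate block. Ms4a2 fell by 2.87 ± 0.45 (adjusted p = 0.0037). Lymphoid markers fell in 1 of 2 cases, which was Nkg7 with a fall of 3.28 ± 0.36 (adjusted p = 5.44e-04). In the fit with the filter that gave these marker counts, 4.76% of all genes fell and 3.01% rose.

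Genes with the profile most like that of C1qb, the only C1q chain past the filter, were found by the root mean square difference of centred log2 signals over the 6 arrays. Of 11620 genes the closest were St8sia4 (0.36), Trem3 (0.41), Chdh (0.43), Fcgr3 (0.52) and Usp49 (0.56). St8sia4, a polysialyltransferase, read 1803, 271 and 2665 in marrow and 244, 353 and 208 in fetal liver. Trem3, a receptor of the TREM family, read 530, 53.3 and 595 in marrow and 48.7, 72.8 and 44.0 in fetal liver. Both were high on marrow replicates 1 and 3, as C1qb was. Marrow replicate 2 of St8sia4 and Trem3 lay among the fetal liver arrays, while that of C1qb lay below them. This is a description over 6 arrays, with no test.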

How the data were processed

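Each sample was hybridised to 1 Affymetrix oligonucleotide array. The authors deposited linear intensity values per probe set, which MAS5 had produced, per the submitters' processing notes; no source used here gives its version. With 2% trimmed from both ends, each array averaged 500, and no 2 arrays shared an identical signal. The number of arrays limits the precision, and as the labels name no animals, p-values measure the spread between samples only.

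Signals were used as log2(signal + 2.87), the offset being their 10th percentile. The fit took all 6 arrays, 3 per tissue, in limma 3.58.1 under R 4.3.3 (lmFit, eBayes with trend, Benjamini-Hochberg adjustment over all features, threshold 0.05) and was tested on simulated data. Probe sets with a mean above the 40th percentile were kept (27022 of 45037), and each of 11625 genes was represented by its brightest one. Members below this filter are given from the same fit without it (18193 genes). The offset shrinks the folds of dim genes, but signals under the bacterial controls still enter their changes. With dim signals set to those controls the change of Cd163 was -2.66 in place of -3.91. That of C1qa, in the fit without a filter, was -1.14 in place of -3.17. A signal was background up to the highest bacterial control of its array. Where no array of a tissue exceeded it, "at least" sets the brighter tissue's mean log2 signal against the mean of, per array, the higher of the dim signal and that control. Names came from the platform annotation (34958 probe sets with 1 symbol, 932 with several). Of each related list the text names up to 4 called genes with the largest change, or the 2 with the smallest p, and of marker lists the 2 brightest tested genes; values of some of the latter are left out here. Members and lists were chosen with earlier results of these data known. The labels do not say that samples with the same number share a litter, batch or day, so the numbers were not taken as pairs. Deviations of samples with the same number correlated at 0.15, -0.02 and 0.08, which does not settle whether they were pairs. Figures were drawn with matplotlib 3.10.9.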

Additional observations from a re-analysis of the deposited data

How the results depend on the processing

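Alternatives covered the offset, a floor, normalization, the filter, the variance model, the choice of probe set, the replicate number as a block and each array left out. No member's change reversed in any of them. The count of members lower in fetal liver was 3, became 2 under the floor, and was 2 to 4 with an array left out. In the fit without a filter it was also 3, with 1 to 4 when an array was left out. There it was 2 without the variance trend and 2 with the mean of the probe sets. These fits without a filter were added after seeing the data. The count of called probe sets of members was 4, became 2 without the variance trend, and was 2 to 5 with an array left out. Over all genes 903 were past the threshold, 537 without the variance trend and 419 to 731 with an array left out. Under median centring the median over all genes went from 0.01 to 0.26, and marrow held 32.8% of the calls in place of 61.2%; the 3 members remained called. With the replicate block 1210 genes and 3 members were past the threshold, though not every array correlated best with its own number. Among other genes named in the report, C5ar1, Cfp, Mfge8, Pros1 and Tfrc were not called without the variance trend. A dendritic cell marker was called higher under a larger offset, the floor, quantile normalization, median centring, the mean of the probe sets, the block and without marrow replicate 3. The causes of these shifts were not tested. Signals near the bacterial controls limit what can be said of C1qa, C1qc, Adgre1, Timd4 and Spic.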
